A study of Mus musculus with 48 samples.

Results

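Matrix metalloproteinases (MMPs), the ADAMTS proteases, the ADAMTS-like proteins and the tissue inhibitors of metalloproteinases (TIMPs) were followed across 16 groups of primary mouse cells. Members were taken by gene symbol alone, and 51 of the 50763 genes in the count tables matched: 23 MMP genes, 19 ADAMTS genes, 5 ADAMTS-like genes and 4 TIMP genes. The cells came from 4 mouse lines, each heterozygous for a Cre-dependent BERKY3 biosensor of an active G protein alpha subunit. Gas*-BERKY3 mice gave astrocytes from the brain, and Gai*-BERKY3, Gaq*-BERKY3 and Ga13*-BERKY3 mice gave lung fibroblasts. All cells received a virus: AAV2/1-CMV-Cre, which turns the biosensor on, or AAV2/1-CMV-empty, which leaves it off. For the last 90 min they were kept in fresh medium without agonist, or with 1 µM isoproterenol (astrocytes) or 100 µM TRAP-6 (fibroblasts). Isoproterenol activates beta-adrenergic receptors, and TRAP-6 is a peptide agonist of the thrombin receptor PAR1. Line, virus and agonist gave 16 groups of 3 libraries. No group had Cre without a biosensor allele among the libraries used, and the 2 cannot be told apart in any comparison of viruses. Cre was driven by the CMV promoter, which is not specific to a cell type. The labels do not give the age of the mice or say whether replicates came from separate animals, so p-values measure the spread between these libraries, which may be technical.

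MMPs are zinc proteases that cut collagens, other matrix proteins and many cell surface proteins. Most are secreted as inactive proenzymes, while the membrane-type MMPs sit at the cell surface. ADAMTS enzymes are secreted relatives that carry thrombospondin repeats: some cut the proteoglycans aggrecan and versican, others remove the propeptides of procollagens. ADAMTS-like proteins share the repeats but lack the protease domain. TIMPs bind and block the active proteases, and TIMP3, which attaches to the matrix, also blocks ADAMTS enzymes. Astrocytes and fibroblasts are both known as sources of these proteins, in brain matrix and in connective tissue.

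Total counts per library were between 15606007 and 42564149. The biosensor sequence was at 0 to 1.05 CPM (counts per 1000000 counts of the library) in all empty-virus libraries and at 19.1 to 137 CPM in all Cre libraries. The 9 astrocyte markers summed to 8858 to 9728 CPM in the Gas libraries and to at most 300.1 CPM in fibroblasts. The 9 fibroblast markers summed to 28084 to 49030 CPM in the lung cultures and to 1690 to 2127 CPM in the astrocyte cultures. Other cells were present by their markers: all 10 microglia and macrophage markers were at 1 CPM or more in the astrocyte cultures, with sums of 235 to 267 CPM. In bulk RNA, fewer cells of a type and less RNA per cell cannot be told apart. Libraries of 1 number stood apart in each fibroblast line, most in Gai. Of 34 Gai members with at least 400 counts, 12 were lowest and 10 were highest in the libraries numbered 1, in all 4 groups. In the same way the libraries numbered 3 were lowest for 4 and highest for 5 of 32 members in Gaq, and lowest for 1 and highest for 8 of 34 in Ga13. In Gai, Mmp10 was at 123 to 150 CPM in the 4 libraries numbered 1 and at 178 to 244 CPM in the other 8. Counts of called members that use fibroblast lines are therefore also given without the libraries that stood apart. This setting was chosen after the values were seen, and all other values use all libraries. Members lowest or highest in such libraries helped to set them apart. Calls of those members in this setting are therefore not independent of the choice.

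10 members lie next to each other, with no other protein-coding gene between them, on mouse chromosome 9 in RefSeq (assembly GRCm38.p6): Mmp13, Mmp12, Mmp1b, Mmp3, Mmp1a, Mmp10, Mmp8, Mmp27, Mmp20 and Mmp7. They encode collagenases, stromelysins, a macrophage elastase, an enamel protease and matrilysin. RefSeq promoters (250 bases before to 50 after a start) were used for 36 of the 51 members, 39 promoters in all. Any member promoter on a left-out chromosome is not counted among them, while the counts of all mouse promoters include that chromosome. The AP-1 motif, TGACTCA or TGAGTCA (the same site read on either strand), is a known element of MMP promoters. It was in 7 of the 39 member promoters and in 5.20% of all 32851 mouse promoters, and all 7 belong to genes of this run. Each of the 7 matches lay within 100 bases before a start, a window that held the motif in 1.88% of all promoters. The 100 bases before the start are shown for 6 of those genes, with the motif in capitals, and for Mmp8, which has none there.
Mmp13 (chr9:7272414-7272513, plus strand): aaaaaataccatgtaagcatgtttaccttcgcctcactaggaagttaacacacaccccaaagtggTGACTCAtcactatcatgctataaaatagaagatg
Mmp12 (chr9:7347274-7347373, plus strand): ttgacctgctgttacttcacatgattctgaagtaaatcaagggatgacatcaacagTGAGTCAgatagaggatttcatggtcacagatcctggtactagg
Mmp3 (chr9:7445722-7445821, plus strand): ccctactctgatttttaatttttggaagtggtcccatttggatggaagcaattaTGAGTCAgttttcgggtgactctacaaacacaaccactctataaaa
Mmp1a (chr9:7464041-7464140, plus strand): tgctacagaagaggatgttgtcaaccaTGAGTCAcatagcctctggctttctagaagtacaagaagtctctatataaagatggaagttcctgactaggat
Mmp10 (chr9:7502242-7502341, plus strand): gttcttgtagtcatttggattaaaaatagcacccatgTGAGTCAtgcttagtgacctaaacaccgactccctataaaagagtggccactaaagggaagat
Mmp8 (chr9:7558329-7558428, plus strand): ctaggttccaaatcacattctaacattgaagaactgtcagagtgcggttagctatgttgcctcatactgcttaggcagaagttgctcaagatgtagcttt
Mmp7 (chr9:7691990-7692089, plus strand): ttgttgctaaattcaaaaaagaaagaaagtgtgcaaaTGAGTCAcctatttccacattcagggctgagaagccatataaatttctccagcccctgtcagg
The Mmp12 sequence precedes the second of its RefSeq starts, and the Mmp7 sequence the first. Counted from the start, the motif began at -35 in Mmp13, -44 in Mmp12, -46 in Mmp3, -63 in both Mmp10 and Mmp7, -73 in Mmp1a and -93 in Mmp1b. Mmp8, Mmp27 and Mmp20 had no match. The full cyclic AMP response element, TGAC directly followed by GTCA, was in 1.79% of all promoters and in 0 of the 39 member promoters. A match is a run of letters and not evidence of binding.

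Whether the motif goes with the level of the 10 neighbours was not tested. In unstimulated empty-virus fibroblasts, line means of genes with the motif were 294 to 516 CPM for Mmp3 and 139 to 417 CPM for Mmp13. They were 166 to 244 CPM for Mmp10, 30.8 to 243 CPM for Mmp12 and 1.66 to 3.36 CPM for Mmp1b. Mmp1a and Mmp7, also with the motif, had 8 counts and 1 count in all 9 libraries. Without it, Mmp8 was at 26.8 to 91.8 CPM and Mmp27 at 0.61 to 0.85 CPM. Mmp20 had 0 counts there, which allows up to 3. In unstimulated empty-virus astrocytes the whole run was low. Mmp12 was at 4.32 ± 0.15 CPM (SD, n = 3), Mmp3 at 1.38 ± 0.47 CPM, and the other 8 genes together had 15 counts in 3 libraries.

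**Figure D1:**
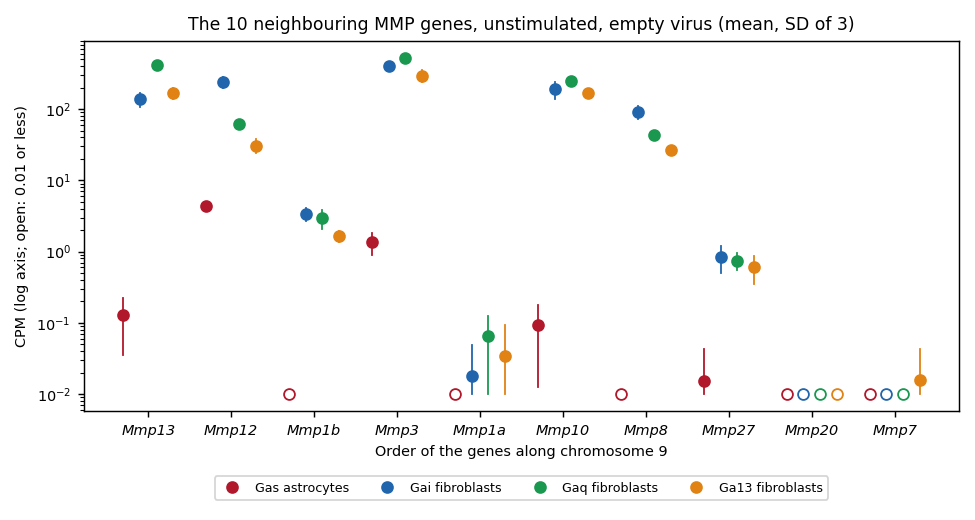
Levels of the 10 neighbouring MMP genes on chromosome 9 in their order (x axis) as CPM on a log axis, unstimulated and with empty virus; points are means and bars SDs of 3 libraries per line, and open points stand for 0.01 CPM or less. The red astrocyte points lie below the fibroblast points wherever a gene was detected in both, and the fibroblast means of Mmp12 run from 30.8 to 243.

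Levels differed widely between the 2 cell types. Of the 51 members 45 passed the filter on low counts in the comparison of unstimulated empty-virus cells, and 39 differed between astrocytes and the mean of the 3 fibroblast lines (edgeR's quasi-likelihood test, Benjamini-Hochberg adjusted p under 0.05 over all genes). The background is high, since 81.4% of all 17811 genes tested passed the same test, so the count itself is not particular to these families. The count was 39 without the Gai library numbered 1, 40 without the Gaq library numbered 3 and 39 without the Ga13 library numbered 3. By direction, 15 members were higher in astrocytes and 24 in fibroblasts. Some of these passed the filter only through the cell type where they were high, which fixed their direction in advance. Adamts17, Adamts18, Adamts20, Mmp24 and Timp4 were too low to test in any fibroblast line. Mmp1b, Mmp8, Mmp10, Mmp13 and Mmp27 were too low to test in astrocytes. For these members the counts by direction and the adjusted p are descriptions only. Among the MMP genes 3 were higher in astrocytes and 12 in fibroblasts. The ADAMTS genes were split 8 and 8, the ADAMTS-like genes 3 and 1, and the TIMP genes 1 and 3. The median log2 difference, astrocytes minus fibroblasts, was -0.82 over the 45 members and 0.06 over all genes. Log2 differences use a scaling factor per library (TMM) and CPM values use library totals, so the 2 can differ in size. Small differences can also differ in direction. Mmp17 was at 2.44 CPM per kb of exon in astrocytes and at 1.79 in fibroblasts, with a log2 difference of -0.04. Adamts9 counted as higher in fibroblasts (-0.65 ± 0.10) and Adamts15 as higher in astrocytes (0.74 ± 0.24), although their CPM ranges overlapped. For Adamts9 these were 45.3 to 48.3 CPM in astrocytes and 40.5 to 79.6 CPM in fibroblasts. The cultures also differed in organ, mouse line, seeding density and virus dilution, which cannot be told apart from cell type.

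TIMP genes had the highest levels per length in both cell types. Per kb of exon (lengths from an earlier annotation, so these values are approximate), Timp2 was at 313 and Timp3 at 168 CPM per kb in astrocytes, followed by Adamts1 at 59.4, Mmp14 at 58.5 and Timp1 at 32.8. In fibroblasts the order was Timp1 at 1027, Timp3 at 794, Timp2 at 393, Mmp14 at 256 and Mmp3 at 223 CPM per kb. Adamts1 encodes a versican-cutting protease, and Mmp14 encodes the membrane-type MMP that activates pro-MMP2. Summed per length, the 4 TIMP genes were at 517 ± 9.06 CPM per kb (SD, n = 3) in astrocytes, against 139 ± 1.37 for the MMP genes. In the Gaq line, the highest of the fibroblast lines, these sums were 2466 ± 56.8 and 1175 ± 24.5.

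The TIMP genes did not share one pattern. Timp1, the inducible member of the family, was at 32.2, 26.0 and 29.3 CPM in the 3 astrocyte libraries and at 687 to 1213 CPM, median 919, in the 9 fibroblast libraries. The ranges lay far apart, with a log2 difference of -5.43 ± 0.10 (SE, adjusted p = 6.5e-19, edgeR). Timp4 went the other way: it was at 24.04 to 26.54 CPM in astrocytes and at 0 to 0.119 CPM in fibroblasts, 10 counts in 9 libraries. Its log2 difference was 8.26 ± 0.23 (adjusted p = 8.8e-23, edgeR). Timp4 passed the filter only through astrocytes, so this p does not test its direction. Timp3 was lower in astrocytes by 2.73 ± 0.06 and Timp2 by 0.82 ± 0.04 on the log2 scale. Timp1, Timp3 and Timp4 each lie within a synapsin gene (Syn1, Syn3 and Syn2), and the exons of Timp3 and Timp4 overlap those of their host on the other strand in the earlier annotation.

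Among the MMP genes, Mmp15, which encodes a membrane-type MMP, stood out in astrocytes. It was at 156, 161 and 153 CPM there and at 0.187 to 1.23 CPM in the 9 fibroblast libraries, a log2 difference of 7.81 ± 0.14 (adjusted p = 6.1e-19, edgeR). Mmp24 and Mmp16, also membrane-type genes, were higher in astrocytes by 5.66 ± 0.43 and 2.81 ± 0.10. Mmp14, of the same kind, was higher in fibroblasts, by 2.61 ± 0.05. The secreted collagenase and stromelysin genes of the chromosome 9 run were at 1.87 CPM or less in astrocytes. Mmp11, the stromelysin-3 gene, lies outside that run and was at 15.9 to 20.8 CPM in astrocytes and 43.7 to 90.7 CPM in fibroblasts. Mmp8 had 0 counts in 3 astrocyte libraries and 25.2 to 108 CPM in fibroblasts, at least 1003-fold higher against a floor of 3 counts over the astrocyte libraries. Mmp1b was at least 49.6-fold higher by the same floor, but its exons overlap those of Mmp12 on the other strand by 157 of 1449 bases in the earlier annotation. Reads of this pair may be mixed where counting ignored strand, at all levels given for Mmp1b. Mmp10 was at 0 to 0.143 CPM in astrocytes and at 133 to 261 CPM in fibroblasts, and Mmp13 at 0.060 to 0.239 and at 105 to 459 CPM. Mmp3 was at 0.928 to 1.87 CPM against 257 to 530.2 CPM. The gelatinase gene Mmp2 was at 95.8 to 99.4 CPM in astrocytes and at 401 to 719 CPM in fibroblasts, whereas Mmp9 did not pass the test (log2 difference 0.13 ± 0.34, adjusted p = 0.73, edgeR). Its fibroblast lines lay on both sides of the astrocytes: 0.46 CPM per kb in astrocytes against 1.45 in Gai, 0.22 in Gaq and 0.09 in Ga13.

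The ADAMTS genes were split evenly between the cell types. Adamts2, which encodes a procollagen N-propeptidase, was at 6.98 to 8.46 CPM in astrocytes and at 455 to 671 CPM in fibroblasts, a log2 difference of -6.61 ± 0.07 (adjusted p = 4.2e-32, edgeR). Adamts12 and Adamts5 followed with -5.66 ± 0.07 and -4.63 ± 0.10. Adamts5 encodes an aggrecanase, as does Adamts4, which was lower in astrocytes by 3.03 ± 0.13. The astrocyte side held Adamts18, Adamts20 and Adamts8. Adamts18 had 158 counts in 3 astrocyte libraries and 0 counts in 9 fibroblast libraries, at least 165-fold higher by the floor over those 9. Adamts20 was at 6.13 to 7.76 CPM against 0 to 0.279 CPM (log2 difference 5.69 ± 0.35), and Adamts8 at 17.7 to 20.8 CPM against 0.287 to 1.03 CPM (4.53 ± 0.17). Adamts1 was higher in astrocytes by only 0.51 ± 0.07 on that scale, at 300.2 to 325 CPM against 95.0 to 249 CPM. Of the ADAMTS-like genes Adamtsl3 and Adamtsl4 were higher in astrocytes by 2.43 ± 0.07 and 1.88 ± 0.09, and Adamtsl5 was lower by 3.52 ± 0.07.

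**Figure D2:**
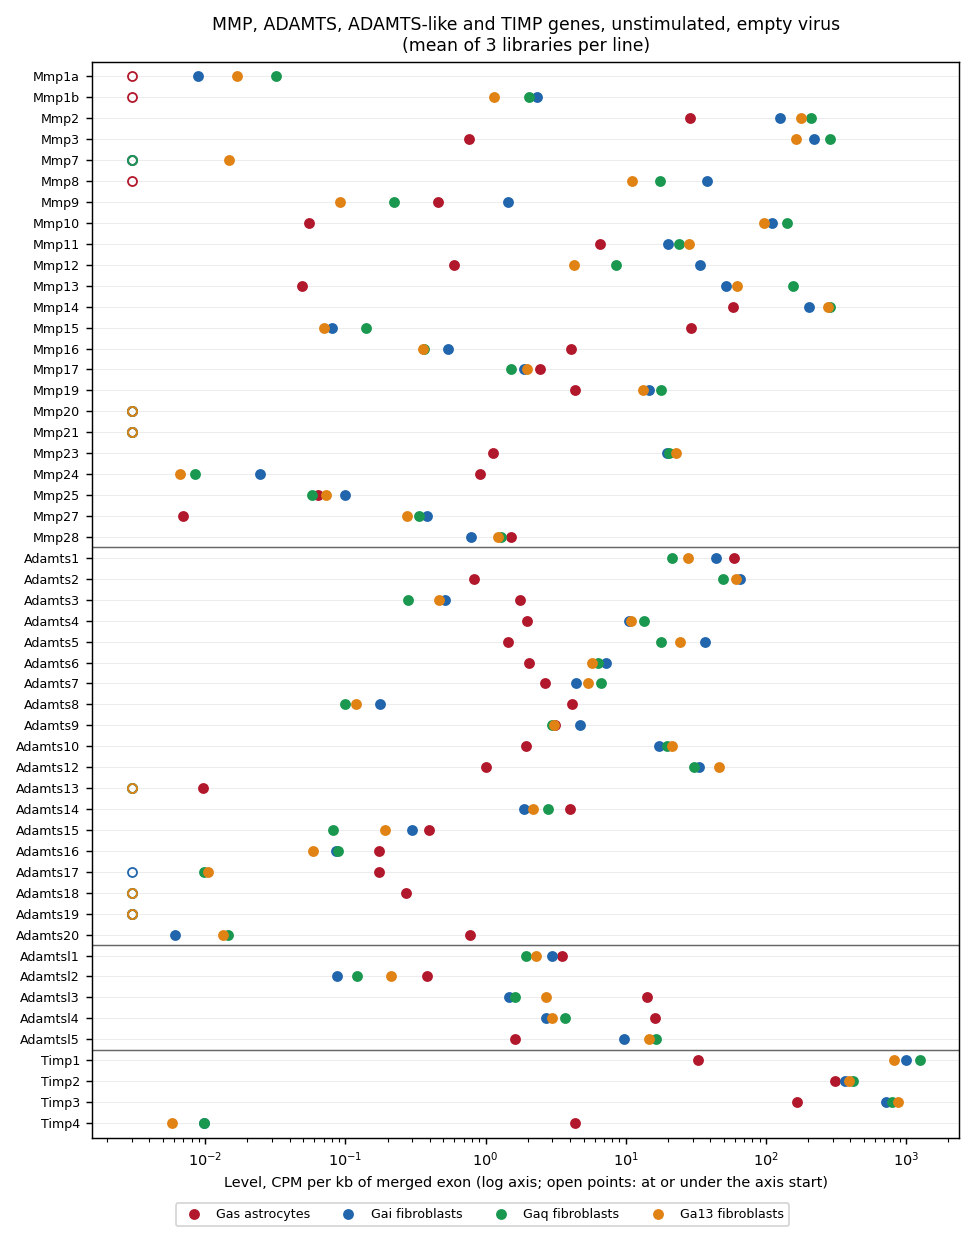
Level of each of the 51 members (rows, by family) as CPM per kb of exon on a log axis, unstimulated and with empty virus; points are means of 3 libraries per line and open points are at or under the start of the axis. The TIMP rows reach the highest values in every line, with Timp1 at 32.8 in astrocytes and 1027 on average in fibroblasts, and Mmp15 and Timp4 show the reverse order.

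6 members did not pass the filter in any line: Adamts13, Adamts19, Mmp1a, Mmp7, Mmp20 and Mmp21. Each had between 1 and 26 counts in all 48 libraries together, so none was at 0 throughout. The 6 tested members that did not pass the test between cell types were Adamts16, Adamtsl1, Mmp9, Mmp17, Mmp25 and Mmp28, with log2 differences from -0.63 to 0.68.

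The 3 fibroblast lines also differed from each other before any agonist. A test over 3 lines called 30 of 45 members (against 30.6% of all genes). Mmp12, the macrophage elastase gene, was at 197, 251 and 281 CPM in Gai, at 64.9, 63.7 and 55.4 CPM in Gaq and at 36.4, 32.7 and 23.2 CPM in Ga13, with no overlap between lines (adjusted p = 2.2e-06, edgeR). Mmp8 (adjusted p = 6.2e-05) and Mmp9 (adjusted p = 1.9e-07, edgeR) were also highest in Gai. MMP9 is a gelatinase of myeloid cells and MMP8 a neutrophil collagenase. The 10 microglia and macrophage markers followed the same order as a sum. The sum was 152 to 225 CPM in all Gai libraries, 69.2 to 93.5 CPM in Gaq and 37.8 to 51.6 CPM in Ga13. Of the 10, 8 were at 1 CPM or more in each line. The others, Aif1 and Cx3cr1, did not follow the order. In Gai, Gaq and Ga13, Aif1 was at 0.074, 0.036 and 0.095 CPM and Cx3cr1 at 0.366, 0.157 and 0.208 CPM. The 8 neutrophil markers summed to at most 2.79 CPM in any fibroblast library, and S100a9, Ly6g, Elane and Retnlg had 3 counts or fewer in each of these lines. Within the Gai line the order did not hold: the libraries numbered 1 had 192 to 225 CPM of macrophage markers and 169.9 to 197 CPM of Mmp12, against 152 to 179 CPM and 225 to 281 CPM in the other 8. The part of these cells in the differences was not tested further.

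Other members followed other orders. Mmp13 was highest in Gaq at 417 ± 36.5 CPM, against 139 ± 30.4 in Gai and 167 ± 28.4 in Ga13. Mmp2 was at 426, 705 and 594 CPM in Gai, Gaq and Ga13 and had the smallest adjusted p of all members (1.0e-09, edgeR). Adamts5 was at 399, 191 and 265 CPM in that order of lines, and its neighbour Adamts1 at 234, 112 and 147 CPM. Line and culture cannot be told apart, since each line is known from 1 set of 12 libraries. The count of 30 was 32 without the Gai library numbered 1, 31 without the Gaq library numbered 3 and 29 without the Ga13 library numbered 3. Mmp12, Mmp8, Mmp9, Mmp13, Mmp2, Adamts5 and Adamts1 passed in each of these 3 fits.

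Isoproterenol changed 15 of the 39 members tested in astrocytes, 12 upward and 3 downward (38.5%, against 23.3% of all 18103 genes). The median log2 change was 0.10 over the 39 members and -0.00 over all genes. The ADAMTS family held the largest changes in both directions. Values are changes averaged over both viruses.

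Adamts1 rose most clearly. With empty virus it was at 325, 300.2 and 319 CPM at rest and at 706, 726 and 734 CPM with isoproterenol. With Cre virus it went from 322, 296 and 312 CPM to 685, 708 and 715 CPM. All 6 stimulated libraries were above all 6 unstimulated ones, and the log2 change was 1.24 ± 0.04 (SE, adjusted p = 2.1e-25, edgeR). Adamts9, which encodes a versican-cutting protease, was at 45.3, 48.2 and 48.3 CPM and reached 98.8, 82.7 and 95.3 CPM with empty virus. With Cre virus it went from 44.0, 45.6 and 46.0 CPM to 70.6, 84.2 and 102 CPM, and the groups did not overlap (log2 change 0.99 ± 0.08, adjusted p = 7.1e-08, edgeR). Adamts4, an aggrecanase gene, was at 11.8, 8.18 and 8.61 CPM with empty virus and rose to 13.6, 13.5 and 17.5 CPM. With Cre virus it was at 11.1, 7.89 and 10.9 CPM and then at 12.6, 13.4 and 17.9 CPM, and no stimulated library was as low as a resting one. The change was 0.65 ± 0.12 (adjusted p = 0.00037, edgeR). In the earlier annotation exons of Adamts4, Adamts8, Adamts9, Mmp11, Mmp28 and Timp3 overlap a gene on the other strand, so reads of each pair may be mixed where counting ignored strand.

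Adamts8 went the opposite way. It was at 17.7, 18.4 and 20.8 CPM at rest with empty virus and at 10.1, 10.6 and 9.95 CPM with isoproterenol. With Cre virus it went from 20.8, 17.1 and 20.8 CPM to 8.78, 12.3 and 10.3 CPM. Resting and stimulated libraries did not overlap, and the log2 change was -0.84 ± 0.08 (adjusted p = 3.6e-10, edgeR). Its neighbour Adamts15 rose by 0.36 ± 0.13, a call that was lost in 10 of 16 alternative fits. Summed per length, the 19 ADAMTS genes went from 86.1 ± 3.31 to 164 ± 4.79 CPM per kb with empty virus, and Adamts1 alone was at 59.4 CPM per kb at rest. The MMP sum stayed at 139 ± 1.37 and 139 ± 3.06 CPM per kb.

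Of the TIMP genes, Timp3 fell. It was at 1419, 1316 and 1357 CPM at rest with empty virus and at 1071, 991 and 1053 CPM with isoproterenol, and with Cre virus it went from 1232, 1260 and 1298 CPM to 975, 1014 and 1026 CPM. The groups did not overlap (log2 change -0.31 ± 0.03, adjusted p = 2.9e-09, edgeR). Timp1 passed the test with a small change of 0.19 ± 0.06 (adjusted p = 0.017, edgeR). It was at 32.2, 26.0 and 29.3 CPM and then 31.8, 27.8 and 28.8 CPM with empty virus, which overlap, and at 26.73, 25.02 and 26.09 CPM and then 31.1, 30.3 and 32.6 CPM with Cre virus, which do not. Timp2 (0.06 ± 0.03) and Timp4 (-0.00 ± 0.06) did not pass.

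Of the 13 MMP genes tested 5 rose and 1 fell. Mmp28, which encodes the secreted MMP epilysin, was at 5.52, 6.44 and 5.74 CPM and rose to 7.34, 8.84 and 9.98 CPM with empty virus. With Cre virus it was at 5.27, 7.98 and 6.83 CPM and then at 8.02, 11.6 and 8.46 CPM, a change of 0.58 ± 0.12 (adjusted p = 0.00017, edgeR), with no overlap within either virus. Mmp9 rose from a low level, 1.95, 1.02 and 1.91 CPM to 2.41, 2.56 and 2.84 CPM with empty virus and 1.47, 1.38 and 1.30 CPM to 2.64, 3.45 and 1.95 CPM with Cre virus (0.87 ± 0.20, adjusted p = 0.0008, edgeR). Its groups did not overlap within a virus, while the lowest stimulated library, at 1.95 CPM, was level with the highest resting one. The microglia and macrophage markers summed to 235 to 262 CPM at rest and to 248 to 267 CPM with isoproterenol, and their part in the Mmp9 change was not tested. Mmp15 went from 156, 161 and 153 CPM to 162, 166 and 176 CPM with empty virus and from 186, 169 and 182 CPM to 188, 186 and 196 CPM with Cre virus, a change of 0.14 ± 0.04 (adjusted p = 0.0048, edgeR). Mmp11, the stromelysin-3 gene, fell from 15.9, 17.6 and 20.8 CPM to 13.1, 13.1 and 14.1 CPM with empty virus and from 18.1, 17.5 and 17.8 CPM to 17.6, 14.2 and 14.4 CPM with Cre virus (-0.27 ± 0.08, adjusted p = 0.0079, edgeR). The Mmp11 groups overlapped with Cre virus and did not with empty virus. Smaller calls were Mmp2 at 0.12, Adamts7 at 0.20, Adamtsl1 at 0.15 and Mmp23 at 0.43, which were lost in 5, 7, 9 and 10 of 16 alternative fits. Without 1 library the count lay between 10 and 17. It was lowest without the stimulated empty-virus replicate 3, when Adamts7, Adamts15, Adamtsl1, Mmp2 and Mmp23 were lost.

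**Figure D3:**
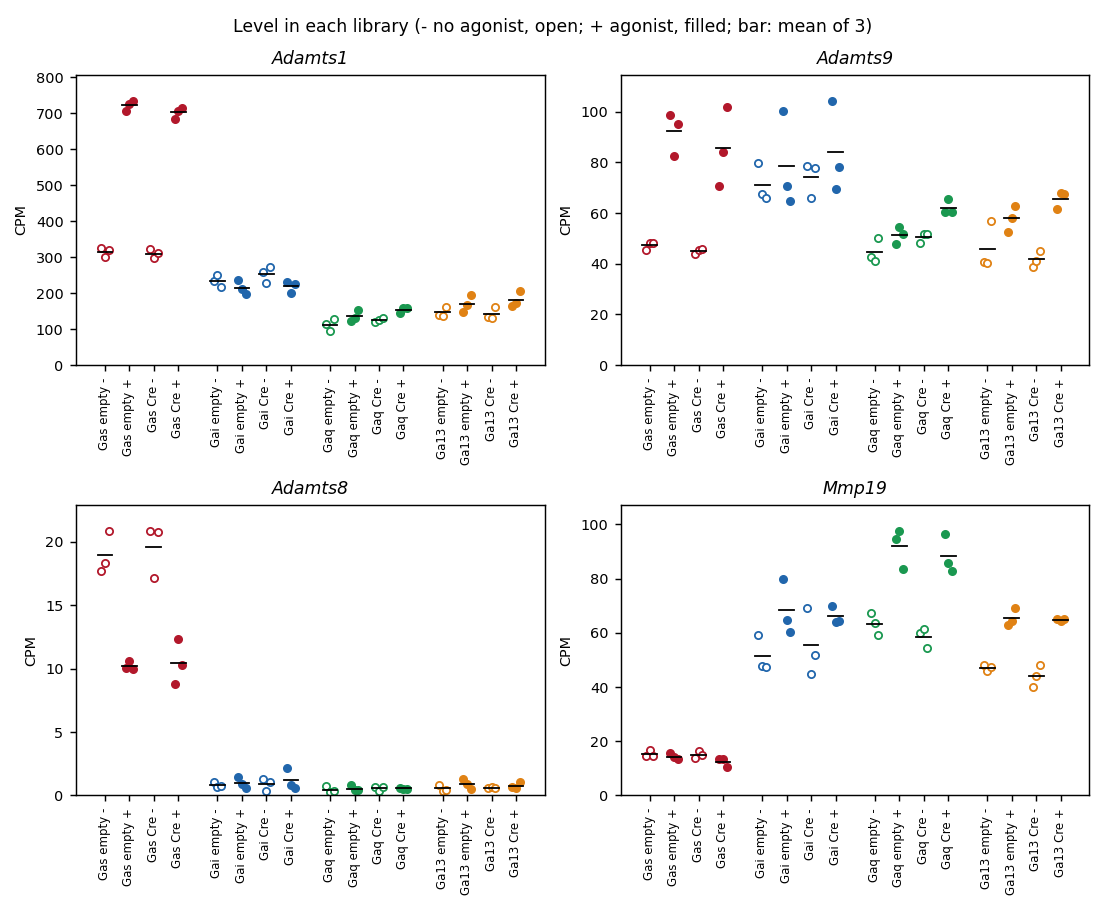
CPM of Adamts1, Adamts9, Adamts8 and Mmp19 in each of the 48 libraries, by line, virus and agonist (open points without, filled with agonist; bars are means of 3). In red astrocytes Adamts1 and Adamts9 lie higher and Adamts8 lower with isoproterenol under both viruses, and Mmp19 lies higher with TRAP-6 in Gaq and Ga13 fibroblasts.

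In fibroblasts TRAP-6 changed 4 of 39 members in Gaq (10.3%, all upward, against 5.61% of all 15528 genes) and 5 of 40 in Ga13 (12.5%, 4 upward and 1 downward, against 8.38% of all 15835 genes). In Gai it changed 0 of 39 by edgeR's test, against 1.12% of all 15980 genes; 6 members had an unadjusted p under 0.05, and DESeq2 called 1, Mmp19. Median changes were 0.02, 0.04 and 0.04 in Gaq, Ga13 and Gai.

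Mmp19, which encodes a secreted MMP, had the smallest adjusted p of all members in Gaq and in Ga13. In Gaq it was at 67.3, 63.7 and 59.3 CPM with empty virus and at 94.6, 97.5 and 83.6 CPM with TRAP-6, and with Cre virus it went from 59.8, 61.3 and 54.5 CPM to 96.6, 85.9 and 82.8 CPM. In Ga13 it went from 48.2, 45.8 and 47.4 CPM to 62.7, 64.4 and 69.3 CPM with empty virus, and from 39.85, 44.24 and 48.05 CPM to 65.1, 64.3 and 65.2 CPM with Cre virus. Stimulated and resting libraries did not overlap in either line, with log2 changes of 0.61 ± 0.05 (adjusted p = 1.9e-09) and 0.56 ± 0.04 (adjusted p = 2.1e-12, edgeR). In Gai, Mmp19 was at 59.1, 47.7 and 47.3 CPM and then 79.7, 64.8 and 60.4 CPM with empty virus, and at 69.2, 44.9 and 52.0 CPM and then 70.0, 64.0 and 64.5 CPM with Cre virus. There the ranges overlapped with Cre virus and did not with empty virus, and the change of 0.35 ± 0.11 did not pass (adjusted p = 0.21, edgeR). Exons of Mmp19 overlap the gene Tmem198b on the other strand in the earlier annotation, and reads of the pair cannot be separated where counting ignores strand.

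Adamts9, Adamts4 and Adamts1, all of which rose in astrocytes, passed in Gaq fibroblasts, and the first pair also in Ga13. Adamts9 rose in Ga13 by 0.54 ± 0.09 (adjusted p = 0.0022, edgeR): with empty virus it was at 40.8, 40.5 and 56.7 CPM and then 52.7, 58.2 and 62.8 CPM, and with Cre virus at 38.9, 41.2 and 45.1 CPM and then 61.8, 67.9 and 67.5 CPM. The groups overlapped with empty virus, where 1 resting library was high, and did not with Cre virus. In Gaq it rose by 0.29 ± 0.05 (adjusted p = 0.00011, edgeR). Adamts4 rose by 0.21 ± 0.04 in Gaq (adjusted p = 0.00088) and by 0.19 ± 0.05 in Ga13 (adjusted p = 0.0045, edgeR). Adamts1 rose by 0.32 ± 0.07 in Gaq (adjusted p = 0.028, edgeR), a call lost in 7 of 17 alternative fits. In Gaq it was at 113, 95.0 and 129 CPM and then 122, 132 and 153 CPM with empty virus, and at 120, 125 and 131 CPM and then 146, 158 and 158 CPM with Cre virus, so that only the Cre groups stood apart. In Ga13 its change was also 0.32 but with a wider error of 0.09 (adjusted p = 0.083), and in Gai it was -0.14 ± 0.06 (adjusted p = 0.44, edgeR). Adamts6 passed in Ga13 with 0.17 ± 0.04 (adjusted p = 0.010, edgeR), at 45.3, 42.6 and 45.9 CPM and then 45.6, 46.6 and 47.2 CPM with empty virus, and at 42.9, 42.7 and 48.1 CPM and then 48.4, 49.7 and 55.1 CPM with Cre virus. Adamtsl5 fell there by 0.14, a call lost in 7 of 17 alternative fits. Averaged over both viruses and with all libraries in the fit, Mmp28, Mmp9, Timp1, Timp2 and Timp3 did not pass in any fibroblast line. With 1 virus alone, Timp3 passed in Gaq with empty virus (0.16, adjusted p = 0.028) and Timp1 in Ga13 with Cre virus (0.15, adjusted p = 0.042, edgeR).

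Single libraries moved these counts. Without the unstimulated empty-virus replicate 3 the count was 7 in Gaq and 8 in Ga13, and in Gai it was 1, Mmp19, without the unstimulated Cre replicate 1. Without the 4 libraries numbered 3 the count was 8 of 39 in Gaq (all upward, against 5.7% of genes), with Adamts5, Adamts12, Mmp10 and Timp3 added to the 4. In Ga13 it was 10 of 39 without those numbered 3 (8 upward and 2 downward, against 7.21% of genes), with Adamts1, Mmp10, Mmp13, Timp1 and Adamts10 added to the 5. Mmp10 and Timp3 in Gaq and Adamts1 in Ga13 were highest in the libraries left out and helped to set them apart. Both counts are therefore not independent of the choice and cannot be weighed against the shares of genes.

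Whether the response differed between lines was tested directly in 1 fit of the 36 fibroblast libraries. It differed for 0 of 40 members by edgeR's test, against 0.299% of 16749 genes. Of the 40, 4 had an unadjusted p under 0.05, and Adamts1 had the smallest adjusted p (0.13); DESeq2 called 1 member, Adamts1. The Gai count depended on the libraries numbered 1. Without those 4 libraries 7 of 38 members passed in Gai (against 4.39% of genes): Mmp19 at 0.40, Mmp13 at 0.30, Mmp11 at 0.27, Mmp10 at 0.19 and Timp3 at 0.11 upward, and Adamts15 at -1.16 and Adamts2 at -0.15 downward. All of these but Timp3 were lowest or highest in the libraries numbered 1 and so helped to set them apart. The count of 7 is therefore not independent of the choice and cannot be weighed against the share of genes. The test between lines called 0 members without the Gai libraries numbered 1, 0 without the Gaq libraries numbered 3 and 1, Adamts1, without the Ga13 libraries numbered 3. Adamts1 was highest in those Ga13 libraries, so the same limit holds for it. Astrocytes and fibroblasts received different agonists, so their responses were not compared by a test.

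**Figure D4:**
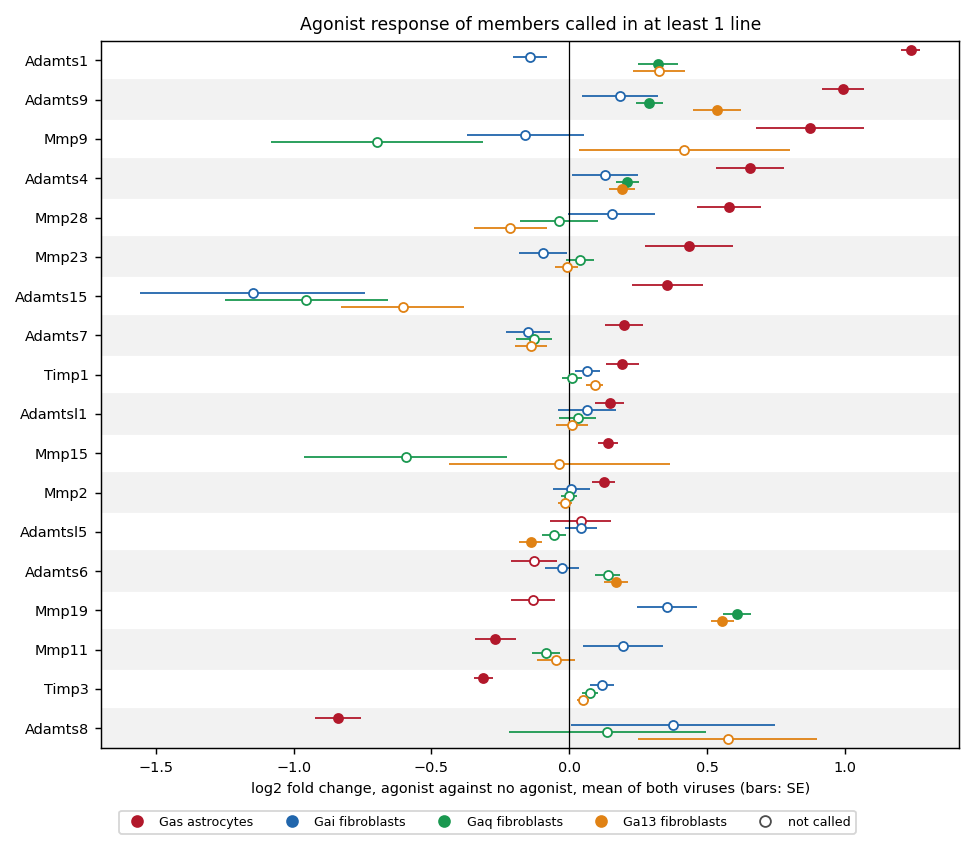
log2 change with agonist, averaged over both viruses, of the 18 members called in at least 1 line, sorted by their value in astrocytes; bars are standard errors, filled points passed at an adjusted p under 0.05, and a missing point means that the member did not pass the filter on low counts in that line. Adamts1 lies at 1.24 in astrocytes and Mmp19 at 0.61 and 0.56 in Gaq and Ga13 fibroblasts.

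Cre virus, compared with empty virus, changed members in Gaq fibroblasts. Without agonist 11 of 39 passed (28.2%, 5 higher and 6 lower with Cre, against 2.65% of all genes). With TRAP-6 10 of 39 passed (25.6%, 5 and 5, against 3.41%). These 2 comparisons share no library. Median changes over the 39 were 0.01 and 0.05.

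Adamts5 was higher and Mmp10 lower in both states. Adamts5 was at 186, 180.4 and 207 CPM with empty virus and at 243, 264 and 277 CPM with Cre virus at rest, and at 198, 190.3 and 197 CPM against 271, 269.8 and 273 CPM with TRAP-6. No library overlapped, and the log2 differences, Cre minus empty, were 0.45 ± 0.05 (adjusted p = 2.8e-07) and 0.48 ± 0.05 (adjusted p = 6.8e-08, edgeR). Mmp10, a stromelysin gene, was at 235, 237 and 261 CPM against 129, 123 and 141 CPM at rest, and at 249, 250.3 and 260.3 CPM against 134, 132 and 166 CPM with TRAP-6. Its differences were -0.90 ± 0.07 (adjusted p = 2.9e-07) and -0.81 ± 0.07 (adjusted p = 6.9e-07, edgeR), again with no overlap. Mmp13, a collagenase gene, was at 400, 393 and 459 CPM against 206, 193 and 251 CPM at rest and at 409, 403 and 459 CPM against 203, 184 and 313 CPM with TRAP-6. Differences were of like size, -0.94 ± 0.19 and -0.86 ± 0.19, but near the threshold (adjusted p = 0.039 and 0.049, edgeR) and lost in 11 and 12 of 17 alternative fits. Without the libraries numbered 3 they were -0.98 (adjusted p = 7.0e-17) and -1.06 (adjusted p = 9.5e-18, edgeR). Mmp13 was highest in those libraries in every group and helped to set them apart. These adjusted p are therefore not independent of the choice and do not make the call firmer.

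The 2 aggrecanase genes moved in opposite directions. Adamts4 was at 65.1, 65.6 and 65.2 CPM with empty virus and at 47.8, 43.4 and 47.8 CPM with Cre virus at rest, a difference of -0.49 ± 0.06 (adjusted p = 1.9e-06, edgeR). With TRAP-6 it was at 66.3, 66.9 and 74.3 CPM against 54.4, 56.5 and 55.8 CPM, a difference of -0.31 ± 0.06 (adjusted p = 0.0011, edgeR). Adamts2 was higher with Cre: 455, 457 and 465 CPM against 529, 530 and 503 CPM at rest (0.19 ± 0.04, adjusted p = 0.011, edgeR), and 429, 448 and 425 CPM against 553, 542 and 500 CPM with TRAP-6 (0.30 ± 0.04, adjusted p = 3.7e-05, edgeR). Timp1 was lower with Cre, by 0.33 ± 0.05 at rest and by 0.20 ± 0.05 with TRAP-6. At rest it was at 1128, 1213 and 999 CPM against 892, 910 and 846 CPM, with no overlap (adjusted p = 0.00032, edgeR). The Timp1 call with TRAP-6 (adjusted p = 0.026, edgeR) was lost in 5 of 17 alternative fits. Timp3 was higher at rest by 0.28 ± 0.04 (adjusted p = 5.2e-05, edgeR) and did not pass with TRAP-6. Mmp11 at 0.42 and Adamtsl1 at 0.43 were also higher at rest, and Mmp8 at -0.43 and Adamts6 at -0.25 lower. The resting calls of Adamts2, Adamtsl1 and Adamts6 were lost in 2, 2 and 4 of 17 alternative fits. With TRAP-6 Adamtsl3 at 0.51, Adamtsl1 at 0.39 and Adamts9 at 0.28 were higher and Adamts14 at -0.48 lower. In that order these calls with TRAP-6 were lost in 2, 3, 2 and 2 of 17 alternative fits.

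The 9 fibroblast markers also differed by virus in Gaq, at 36384 to 39362 CPM with empty virus and 41841 to 46874 CPM with Cre virus, as did the 4 mesothelium markers, at 254 to 315 and 305 to 357 CPM, the latter with overlap. Their part in these differences was not tested. The count with TRAP-6 fell to 4 without the stimulated empty-virus replicate 1, to 5 without the stimulated Cre replicate 2 and to 6 without the stimulated Cre replicate 1, and the count at rest fell to 7 without the unstimulated Cre replicate 1. Without the Gaq libraries numbered 3 the counts were 12 at rest and 14 with TRAP-6.

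**Figure D5:**
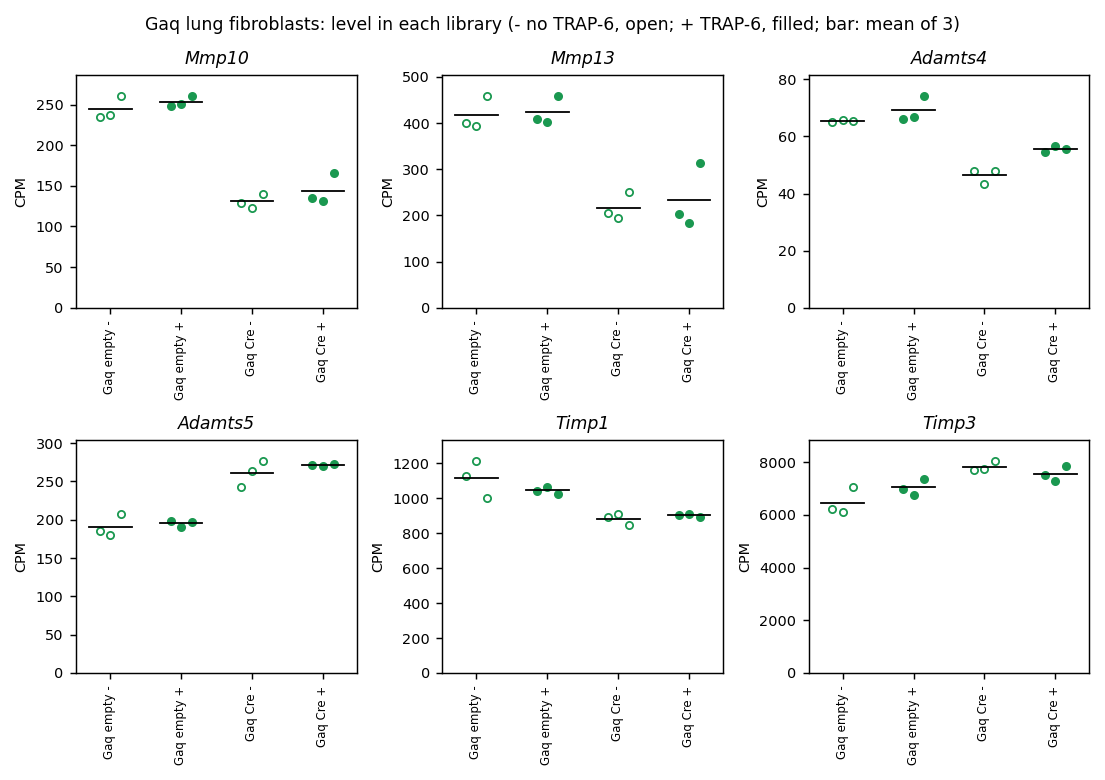
CPM of Mmp10, Mmp13, Adamts4, Adamts5, Timp1 and Timp3 in each Gaq library by virus and agonist (open points without, filled with TRAP-6; bars are means of 3). Mmp10, Mmp13 and Adamts4 lie lower and Adamts5 higher with Cre virus in both states.

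In the other lines no member passed between viruses by edgeR's test. In Gas 0 of 39 passed at rest (0.00552% of all genes) and 0 with isoproterenol (0.0166%), with 2 unadjusted p under 0.05 each. In Gai 0 of 39 passed in either state (0% and 0% of genes), with 1 unadjusted p under 0.05 each. In Ga13 0 of 40 passed at rest (0.00632%) and 0 with TRAP-6 (0.0379%), with 6 each. DESeq2 called 0 members in all of these 6 comparisons. In Gai, without the libraries numbered 1, Mmp10 passed at rest with -0.29 (adjusted p = 0.019, edgeR). Mmp10 was lowest in those libraries, so this call is not independent of leaving them out. In Ga13, without the libraries numbered 3, Adamts4 at -0.32 and Adamts10 at -0.20 passed with TRAP-6 (adjusted p = 0.024 and 0.043, edgeR) and 0 members at rest. In Ga13 the Mmp10 differences were -0.21 ± 0.08 at rest and 0.06 ± 0.08 with TRAP-6, and those of Adamts4 were -0.27 ± 0.07 (adjusted p = 0.30) and -0.25 ± 0.06 (adjusted p = 0.19, edgeR). Whether the virus effect differed between lines was not tested.

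The agonist response itself differed between viruses for 0 members in each line by edgeR's test, against 0% of genes in Gas, 0% in Gai, 0.161% in Gaq and 0.0821% in Ga13. Unadjusted p under 0.05 were 1, 3, 7 and 5. The smallest adjusted p was that of Adamts10 in Ga13 (-0.28 ± 0.07, adjusted p = 0.12, edgeR), and DESeq2 called that gene alone. Without the libraries of the number that stood apart, edgeR's test called 0 members in Gai and Ga13 and 1 in Gaq, Timp3 (-0.22, adjusted p = 0.029). Timp3 was highest in the Gaq libraries left out, so this call is not independent of that choice.

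Genes around these families were followed in 3 lists. The first held 20 genes that activate MMPs or block them outside the TIMPs, including the plasminogen system. The shares passing among all genes, 23.3% in Gas, 1.12% in Gai, 5.61% in Gaq and 8.38% in Ga13, are the background for their counts. In astrocytes 3 of 18 tested rose and 4 fell with isoproterenol. Plaur, the urokinase receptor gene, fell by 0.81, Reck, a membrane-anchored MMP inhibitor gene, by 0.62 and Plau, the urokinase gene, by 0.48 on the log2 scale. In fibroblasts TRAP-6 raised 2 of 16 in Gai, 3 of 16 in Gaq and 4 of 16 in Ga13, and 0 fell. Without the Gai libraries numbered 1, 2 rose and 1 fell in Gai. Plau rose by 0.45, 0.62 and 1.04 and Cd44, a receptor that can hold MMP9 at the cell surface, by 0.36, 0.51 and 0.63 in those lines. In Ga13 Plaur rose by 0.18.

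The second list held 12 genes of the related ADAM family, of which 11 were tested. With isoproterenol 3 rose (Adam15 by 0.26, Adam8 by 0.25 and Adam9 by 0.09), and with TRAP-6 0 passed in Gai and Gaq and 1 in Ga13 (Adam9, 0.09). These counts lie near or below what the background share would give for 11 genes. The third list held 24 substrates and matrix partners. In astrocytes 5 of 24 rose and 1 fell. Thbs1, the thrombospondin-1 gene, rose by 1.08 and Comp, a cartilage matrix protein gene that was at 0.273 to 0.341 CPM at rest, by 2.33, while Cspg4 fell by 0.27. The astrocyte count is near the background of 23.3%, so it is not a result about this list. With TRAP-6 0 of 20 passed in Gai, 2 of 21 rose in Gaq and 3 of 21 rose and 1 fell in Ga13. Without the libraries of the number that stood apart, 2 rose and 1 fell in Gai, 4 rose and 1 fell in Gaq, and 3 rose and 1 fell in Ga13. Tnc, the tenascin-C gene, rose by 0.34 in both Gaq and Ga13. Median changes of the 3 lists lay between -0.03 and 0.08 in all 4 lines, against -0.01 to 0 over all genes.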

How the data were processed

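RNA from 48 cultures was sequenced as poly-A libraries. The authors deposited raw counts per gene, made with fastp, Subread and featureCounts on GRCm39 per the submitters' processing notes; versions, gene annotation and strand setting are not given in the sources used here. Groups were taken from the labels. Each line was fitted alone (12 libraries) with edgeR 4.0.16 (R 4.3.3): filterByExpr by group, TMM factors, a robust quasi-likelihood F test and Benjamini-Hochberg adjustment over all genes tested, called at an adjusted p under 0.05. Further fits used the 36 fibroblast libraries and the 12 unstimulated empty-virus libraries. SE is the absolute log2 fold change divided by the square root of F. CPM is counts per 1000000 of the library total, and the biosensor row was kept in totals but not tested. Exon lengths come from GENCODE M21 (GRCm38). The scripts were tested on simulated data. Members, lists and the rule for named members were chosen with earlier results of these data known. The rule gives values in each library for up to 12 members called in an agonist response and 4 called between viruses, by smallest adjusted p, names the 5 highest levels per length and up to 6 called members of each sign between cell types, and up to 3 called genes per list and line. Values of Mmp12 and Mmp13 by library and Plau in Ga13 were added after values were seen. Alternatives were RLE factors, DESeq2 1.42.0, no filter, the replicate number as a block, leaving out each library and, added after values were seen, leaving out the libraries of the number that stood apart in a line. No pair of replicates held identical values (smallest chi-square per degree of freedom 2.62). The values of 1 list gene are not reported here.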

Additional observations from a re-analysis of the deposited data

How the results depend on the processing

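No member called in the main fits changed direction under any alternative run. Taking each called member in each alternative fit, 1348 results kept the call and 104 lost it. Calls among the fibroblast lines, which have no direction, are not in these numbers. Members that were not called in the main fits and gained a call in an alternative are not in them either. Such gains appear only in the counts of called members given below. Astrocytes and fibroblasts differed in 39 members with RLE factors, DESeq2 and no filter, and in 38 to 40 without 1 library; the fibroblast lines differed in 26 to 32 without 1 library. The isoproterenol count was 10 to 17 without 1 library.

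The TRAP-6 count in Gai, 0, became 1 with DESeq2, 1 with no filter, 0 to 1 without 1 library and 7 without the libraries numbered 1, a setting chosen after seeing the data that also gave 1 between viruses at rest. Without the libraries numbered 3, also chosen after seeing the data, the TRAP-6 count was 8 in Gaq and 10 in Ga13. That setting gave 1 in Gaq for the difference in response between viruses, and in Ga13 2 between viruses with TRAP-6 and 1 among lines. In Gaq the count of 4 was 3 to 7 without 1 library. In Ga13 the count of 5 was 8 with no filter and 4 to 8 without 1 library. Between viruses in Gaq, 11 at rest became 7 to 12 and 10 with TRAP-6 became 4 to 11 without 1 library. With no filter Ga13 gave 2 between viruses at rest and 1 with TRAP-6. The difference in response between viruses gave 0 to 1 in Gaq and in Ga13 without 1 library, and in Ga13 1 with DESeq2 and 3 with no filter. DESeq2 called 1 member among lines. The cause was not tested.

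The labels do not say that replicate numbers mark a shared animal or batch, and the rule for pairing, every same-number correlation of deviations over 0.1, was not met: 0 of 18 pairs in Gas, Gaq and Ga13 and 8 of 18 in Gai were over it. As a hint from the data, median correlations were 0.026, 0.087, 0.042 and 0.037 with the same number and -0.013, -0.13, -0.021 and -0.014 with other numbers in Gas, Gai, Gaq and Ga13, and 11, 5, 9 and 11 of 12 libraries correlated best with their own number. With the replicate number as a block the agonist counts were 17 in Gas, 5 in Gai, 8 in Gaq and 9 in Ga13. The block gave 15 and 13 between viruses in Gaq at rest and with TRAP-6, and 1 and 3 in Ga13. It gave 1 in Gaq and 1 in Ga13 for the difference in response between viruses, and 2 among lines. It was not fitted to the unstimulated comparison of cell types.

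Depth limits the low members: 6 of 51 were too low to test in any line.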
